A study of Mus musculus with 11 samples.

Results

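The 4 mouse genes of endoplasmic reticulum (ER) stress and ER protein folding, Ddit3, Creld2, Pdia6 and Ero1lb, were followed sample by sample in sorted striatal cells after knockdown of the transcription factor NF-Y. They were chosen by gene symbol for their known roles, with earlier results of these data known. All 4 were among the 1767 genes of the authors' RNA-seq table. The authors' table holds only genes with p-values under 0.05 for the difference between knockdown and control, so that all comparisons between the groups below describe genes already selected on that difference and are not independent evidence of it. Male wild-type C57BL/6 mice received adeno-associated virus (AAV1/2) vectors in the striatum of both hemispheres at 6 weeks of age. In the NF-YA/YC knockdown group (5 samples), the vector expressed EmGFP together with RNAi miRNAs against NF-YA and NF-YC (YA-8/YC-2). In the NT2 control group (6 samples), it expressed EmGFP with a non-targeting miRNA. Striata were dissociated with papain 3 weeks after injection, cells positive for EmGFP and negative for propidium iodide were sorted, and their RNA was amplified with the SMARTer Ultra Low Input kit and sequenced. The CAG promoter of both vectors is not restricted to neurons, and no neuronal marker was used in the sort.

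Proteins that enter the ER are folded by chaperones, by disulfide isomerases that shuffle bonds between cysteines, and by oxidases that recharge the isomerases. When unfolded proteins build up, the sensors PERK, IRE1 and ATF6 start the unfolded protein response, which slows translation and raises transcription of folding factors. NF-Y, a trimer of NF-YA, NF-YB and NF-YC, binds the CCAAT box of many promoters, and in the ER stress response element this box stands at a fixed distance from CCACG, which is contacted by ATF6. If the stress persists, the PERK branch induces the transcription factor CHOP, the product of Ddit3, which is linked to cell death.

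Summed over the listed genes, the estimated counts ranged from 1581757 in control replicate 3 to 3141324 in control replicate 21, and lay between 1954949 and 3010153 after knockdown. These sums are not library depths. The values below are normalized counts, estimated counts divided by a TMM scaling factor per sample. Of the targeted genes, Nfyc was analysed. Its normalized count was between 732.8 and 1206 in the control samples, with a median of 898, and was 975.5, 840.4, 887.3, 602.8 and 721.8 in knockdown replicates 4, 6, 8, 10 and 22. Both groups overlapped, and the knockdown to control difference of Nfyc on the log2 scale was -0.19 (SE 0.15; edgeR quasi-likelihood test, Benjamini-Hochberg adjusted p = 0.255). With the scaling factors used by the authors in place of TMM it was -0.32 (SE 0.14; same edgeR test, adjusted p = 0.0531). Nfya and Nfyb were not analysed here.

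Ddit3, Creld2 and Pdia6 had higher counts in the knockdown samples, whereas Ero1lb was not called, with a log2 fold change of -0.06 with TMM and -0.19 with the authors' scaling. Ddit3 encodes CHOP and lies on chromosome 10 from 126727849 to 126733344 on the plus strand (mm9, the build named in the submitters' processing notes). In the control samples its normalized count ranged from 876.9 in replicate 7 to 1230 in replicate 3, with a median of 979.3. In the knockdown samples it was 1406 in replicate 4, 1305 in replicate 6, 1401 in replicate 8, 1596 in replicate 10 and 1326 in replicate 22. Every knockdown sample was above every control sample, and replicate 10 was the highest. The means were 1010 ± 134 (SD, n = 6) and 1407 ± 115 (SD, n = 5), and Ddit3 was thus 0.48 higher on the log2 scale (SE 0.11; edgeR quasi-likelihood test, Benjamini-Hochberg adjusted p = 0.00962). The difference of mean log2 values was tested by a two-sided exact permutation test over the 462 divisions of the samples (p = 0.0043). Among the samples numbered 3 to 10, with 4 per group, the difference was 0.50 (two-sided exact permutation test, p = 0.029, the smallest that 4 against 4 samples allow). The series from 21 to 23 held 2 controls and 1 knockdown sample and was not tested alone.

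Creld2 encodes an ER-resident protein of the cysteine-rich EGF-like domain family that is induced by ER stress, and lies on chromosome 15 from 88650076 to 88657111. Its normalized count ranged in the control samples from 852.5 in replicate 7 to 1843 in replicate 3, with a median of 1108. In the knockdown samples it was 2394, 3138, 1430, 1728 and 2503 in replicates 4, 6, 8, 10 and 22. Knockdown replicates 4, 6 and 22 were above all controls, while replicates 8 and 10 were below control replicate 3, so that the groups overlapped. The other 5 controls, of which replicate 21 was the highest at 1349, were all below the lowest knockdown sample. Creld2 had the largest log2 fold change of the 4 genes, 0.90 (SE 0.23; same edgeR test, adjusted p = 0.0144), with means of 1198 ± 369 (SD, n = 6) and 2239 ± 674 (SD, n = 5) and p = 0.015 from the two-sided exact permutation test. Among the samples numbered 3 to 10 the difference was 0.93 (two-sided exact permutation test, p = 0.086).

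Pdia6 encodes a protein disulfide isomerase of the ER, and lies on chromosome 12 from 17273401 to 17291576. Its normalized count ranged in the control samples from 5164 in replicate 7 to 8467 in replicate 3, with a median of 6002. In the knockdown samples it was 9188, 11190, 7486, 7153 and 9405 in replicates 4, 6, 8, 10 and 22. The samples took nearly the same order as for Creld2, with knockdown replicate 6 the highest, and knockdown replicates 8 and 10 again below control replicate 3. Without that control the groups would not overlap, since the next control was at 6452. The log2 fold change was 0.51 (SE 0.15; same edgeR test, adjusted p = 0.0212), with means of 6242 ± 1210 (SD, n = 6) and 8884 ± 1630 (SD, n = 5) and p = 0.022 from the two-sided exact permutation test. Among the samples numbered 3 to 10 the difference was 0.52 (two-sided exact permutation test, p = 0.086).

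Ero1lb, also named Ero1b, encodes an ER oxidase that passes oxidizing equivalents to disulfide isomerases, and lies on chromosome 13 from 12658150 to 12703663. Its normalized count ranged in the control samples from 914.5 in replicate 9 to 1340 in replicate 3, with a median of 1046. In the knockdown samples it was 1081, 1109, 1023, 985 and 952.1 in replicates 4, 6, 8, 10 and 22. All knockdown samples lay within the range of the controls. The means were 1073 ± 142 (SD, n = 6) and 1030 ± 65.1 (SD, n = 5), and the log2 fold change was -0.06 (SE 0.10; same edgeR test, adjusted p = 0.587), with p = 0.64 from the two-sided exact permutation test. Without control replicate 3, the highest for all 4 genes, the log2 fold change of Ero1lb was 0.01. Among the samples numbered 3 to 10 the difference was -0.04 (two-sided exact permutation test, p = 0.8).

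**Figure D1:**
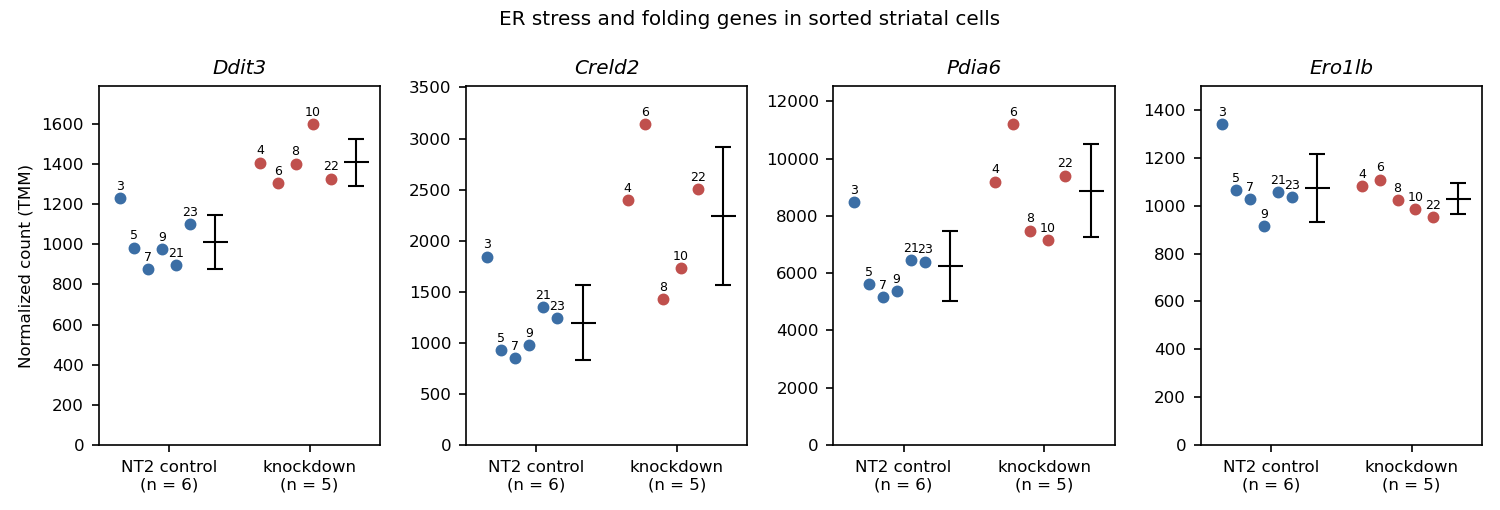
Normalized counts (TMM) of the 4 genes in each NT2 control (blue, n = 6) and NF-YA/YC knockdown sample (red, n = 5), labelled by replicate number, with the mean and SD of each group in black. For Ddit3 all knockdown samples are above 1230, the highest control, and for Ero1lb all lie between 914.5 and 1340, the range of the controls.

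Of the 4 genes, 3 were called higher at an adjusted p under 0.05 in the quasi-likelihood test of edgeR, beside 39.0% of the 1767 listed genes, and Ero1lb was not called. No member was called lower by edgeR with TMM or by DESeq2, or at an unadjusted p under 0.05 in the edgeR test with TMM, beside 21.3% of the listed genes called lower. With the authors' scaling Pdia6 was no longer called in 7 of 11 fits with 1 sample left out (edgeR adjusted p up to 0.0876), and Ero1lb was called lower in the fit without control replicate 9 (-0.23, edgeR adjusted p = 0.0466) and not in the other 10. Ddit3 was the 1 gene of the 4 with every knockdown sample above every control sample, as were 11.4% of the listed genes. The median log2 fold change of all listed genes was -0.13, and the authors' scaling shifted it by -0.13 to -0.27. With that scaling 32.2% of the listed genes were called higher and 47.3% lower, and 6.90% had every knockdown sample above every control. The log2 fold changes were then 0.35 for Ddit3 (adjusted p = 0.0172), 0.78 for Creld2 (adjusted p = 0.0198), 0.38 for Pdia6 (adjusted p = 0.0373) and -0.19 for Ero1lb (adjusted p = 0.072), all by edgeR quasi-likelihood with Benjamini-Hochberg adjustment. Relative to the median of all listed genes, Ddit3 was higher by 0.61 with TMM and 0.62 with the authors' scaling, Creld2 by 1.04 with both, and Pdia6 by 0.64 and 0.65. Ero1lb was then 0.07 above that median with TMM and 0.08 above it with the authors' scaling, and its sign thus depended on the reference. On the authors' scaling, Ddit3 still did not overlap, with a highest control of 1201 and a lowest knockdown sample of 1231. Creld2 and Pdia6 then overlapped also without control replicate 3, with 4 of 5 knockdown samples above the next control at 1481 and 7083. Ero1lb was then below the control median of 1106 in all 5 knockdown samples, which reached 1046 at most (two-sided exact permutation test, p = 0.037).

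Ratios of counts within a sample need no scaling factor. The ratio of Pdia6 to Ero1lb, the isomerase to the oxidase, was 5.79 ± 0.53 (SD, n = 6) in the controls and 8.61 ± 1.35 (SD, n = 5) in the knockdown samples. Its values lay between 5.03 and 6.32 in the controls and between 7.26 and 10.1 after knockdown, without overlap, control replicate 3 included, and the ratio to Ero1lb was higher in every knockdown sample for 16.7% of the other 1766 listed genes. Creld2 to Ero1lb was between 0.83 and 1.37 in the controls and between 1.4 and 2.83 in the knockdown samples, and Ddit3 to Ero1lb between 0.846 and 1.07 and between 1.18 and 1.62. Both therefore did not overlap either. The ratio of Ddit3 to Pdia6, in contrast, had the same mean of 0.164 in both groups, with values between 0.139 and 0.182 in the controls and between 0.117 and 0.223 after knockdown. Creld2 to Pdia6 was 0.189 ± 0.022 (SD, n = 6) in the controls and 0.248 ± 0.0347 (SD, n = 5) in the knockdown samples, and 4 of the 5 knockdown samples were above the highest control. Ddit3 to Creld2 overlapped as well, with values between 0.663 and 1.06 in the controls and between 0.416 and 0.98 after knockdown. These ratios describe the unequal differences of the 4 genes and were not tested.

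Creld2 and Pdia6 varied together over the control samples and took nearly the same order in the knockdown samples. Over the 6 control samples, Pearson's r of their log2 normalized counts was 0.98 (two-sided exact permutation test, p = 0.0042, adjusted p = 0.025 by Benjamini-Hochberg over the 6 pairs of the 4 genes). Spearman's rho was 0.943 (two-sided exact permutation test, p = 0.017, adjusted p = 0.1 over the 6 pairs). Without replicates 3 and 7, the 2 controls farthest from the median of Creld2, r was 0.94. No correlation was computed over the 5 knockdown samples alone, in which both genes were highest in replicate 6, followed by replicates 22 and 4, and lowest in replicates 8 and 10. With the values of each group centred on the group mean, r over all 11 samples was 0.966 with TMM and also with the authors' scaling, given as a description.

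The relation of Ddit3 to the folding genes in the controls rested on the samples farthest from its median. Its r over the 6 controls was 0.796 with Pdia6 (two-sided exact permutation test, p = 0.049, adjusted p = 0.097 over the 6 pairs), with a rho of 0.657 (two-sided exact permutation test, p = 0.17). Without replicates 3 and 23, the farthest from the median of Ddit3, r with Pdia6 was -0.162 and the relation did not hold. With Creld2, r was 0.724 (two-sided exact permutation test, p = 0.11) and rho 0.6 (two-sided exact permutation test, p = 0.24), and r was -0.21 without the same 2 samples. In the knockdown samples Ddit3 was highest in replicate 10, where Pdia6 was lowest, and lowest in replicate 6, where Creld2 and Pdia6 were highest. The 3 genes with higher counts after knockdown thus did not share 1 order of samples.

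Ero1lb had an r of 0.874 with Pdia6 over the controls (two-sided exact permutation test, p = 0.037, adjusted p = 0.097 over the 6 pairs) and a rho of 0.771 (two-sided exact permutation test, p = 0.1). Without the 2 controls farthest from the median of Pdia6, replicates 3 and 7, r was 0.627. With Creld2 its r was 0.779 (two-sided exact permutation test, p = 0.081) and its rho 0.543 (two-sided exact permutation test, p = 0.3), and r was 0.373 without the 2 farthest samples. With Ddit3 the r of Ero1lb was 0.671 (two-sided exact permutation test, p = 0.16) and the rho 0.6 (two-sided exact permutation test, p = 0.24), and r was -0.376 without the 2 farthest samples. Except for Creld2 with Pdia6, no pair of the 4 genes passed an adjusted p of 0.05 by r, and none did by rho.

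**Figure D2:**
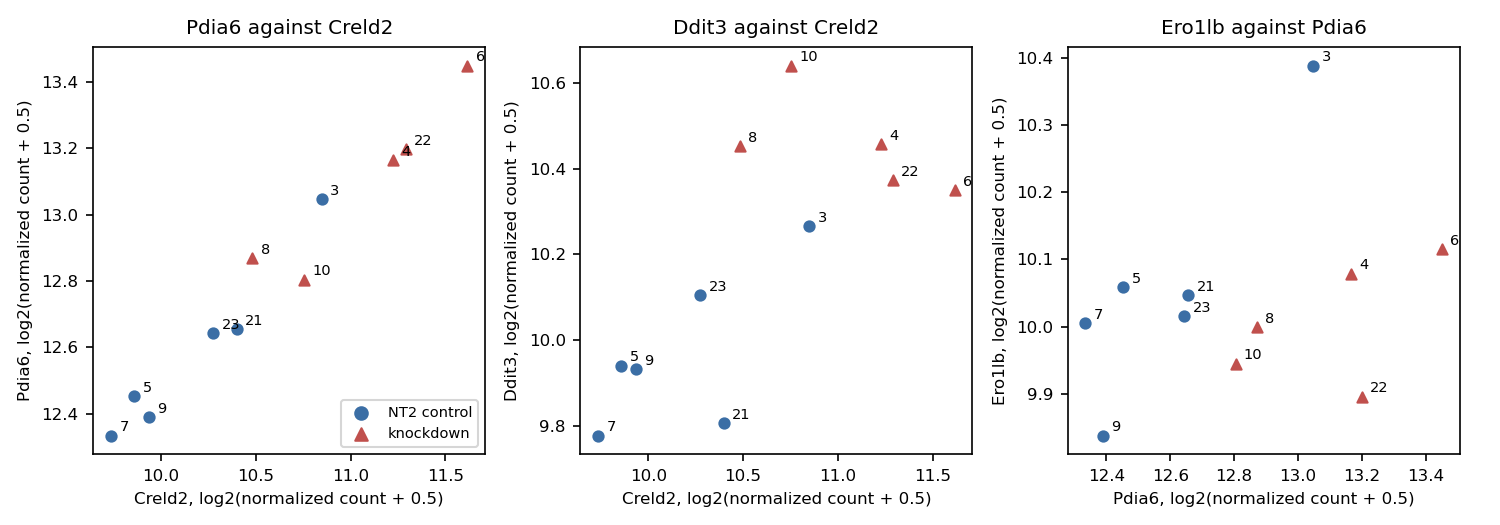
Log2 normalized counts of Pdia6 against Creld2, Ddit3 against Creld2 and Ero1lb against Pdia6, with 1 point per sample (NT2 control, blue circles; NF-YA/YC knockdown, red triangles) and its replicate number. Creld2 and Pdia6 fall along 1 line within each group (r = 0.98 over the controls), whereas knockdown replicate 10 is highest for Ddit3 and low for Creld2.

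The genes whose pattern within groups was most alike were looked up among the 1327 other genes with a highest count of at least 200, by r of the centred log2 values over the 11 samples. For Creld2 the most alike gene was Pdia6, and for Pdia6 it was Creld2 (r = 0.966), and this was also so with the authors' scaling. Next came, for both, Cand1, which encodes an exchange factor of cullin ubiquitin ligases, with r = 0.943 for Creld2 and 0.909 for Pdia6, and Lrig3 with r = 0.909 and 0.882. Cand1 and Lrig3 were not called, with log2 fold changes of -0.07 (adjusted p = 0.515) and -0.24 (adjusted p = 0.154) by edgeR quasi-likelihood with Benjamini-Hochberg adjustment. Ddit3 was most alike to Hook2 (r = 0.952), Stk40 (r = 0.904) and Irak4 (r = 0.871), all called higher, with log2 fold changes of 0.66, 0.45 and 0.55. Ero1lb was most alike to Gmfb (r = 0.911), which was not called (-0.18, edgeR adjusted p = 0.12), followed by Snf8 (r = 0.91), which was called higher (0.48, edgeR adjusted p = 0.0322). With the authors' scaling Hook2 and Gmfb also came first, and Irak4 and Stk40 were at ranks 2 and 3 for Ddit3. Lrig3 and Cand1 were then at ranks 2 and 3 for Creld2 and at ranks 3 and 5 for Pdia6, and Snf8 was at rank 8 for Ero1lb.

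Of 53 listed symbols of ER folding genes, 5 were analysed, and 3 were called higher beside 39.0% of all listed genes, with a median log2 fold change of 0.38 beside -0.13 for all listed genes. With the authors' scaling 2 were called higher and 1 lower, beside 32.2% and 47.3% of all listed genes. The median was then 0.25, beside -0.27. Of these 5 genes, Creld2, Pdia6 and Ero1lb are members themselves, and such small counts are no result about the list. Creld2, Pdia6 and Dnajc1, a J-domain protein of the ER membrane, were called higher, and Ero1lb and Tmx3, a transmembrane thioredoxin-related isomerase, were not called. For Dnajc1 the log2 fold change was 0.38 (adjusted p = 0.0248), and 0.25 with the authors' scaling and then not called (adjusted p = 0.0531), both by edgeR quasi-likelihood with Benjamini-Hochberg adjustment. Its highest control was again replicate 3, at 1067, above knockdown replicates 4 and 10 at 989.8 and 992.2. The log2 fold change of Tmx3 was -0.19 (adjusted p = 0.134), and with the authors' scaling -0.33, called lower (adjusted p = 0.0247, same edgeR test). Erp27, which encodes an ER protein of the disulfide isomerase family, is not among the listed symbols and was named after its values were seen. It was called higher at 1.37 (same edgeR test, adjusted p = 0.00744), at low normalized counts of 16.99 ± 4.53 (SD, n = 6) in the controls and 43.77 ± 9.3 (SD, n = 5) after knockdown. The ER chaperone genes Hspa5 and Hsp90b1, the sensors and factors of the unfolded protein response (14 listed genes) and the remaining listed folding genes were not analysed here.

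Of 51 listed genes of the integrated stress response, the translational arm in which CHOP acts, 13 were analysed, with 5 called higher and 3 lower and a median log2 fold change of -0.14. Beside 39.0% and 21.3% of all listed genes called higher and lower and their median of -0.13, these counts are near the background and are no result about the list, and the genes are given one by one. Those called higher beside Ddit3 were Trib3, a pseudokinase gene induced by CHOP, Nupr1, a stress-induced chromatin protein gene, Bbc3, which encodes the death-promoting protein PUMA, and Eif2ak2, which encodes the RNA-activated kinase PKR. Trib3 was at 155.6, 123.4, 91.01, 204.8 and 182.5 in knockdown replicates 4, 6, 8, 10 and 22, against 48.05 to 97.47 in the controls with a median of 73.45. Its log2 fold change was 1.03 (SE 0.26; edgeR quasi-likelihood test, Benjamini-Hochberg adjusted p = 0.0146). Trib3, like Ddit3, was highest in knockdown replicate 10, but in control replicate 3, where Ddit3 was the highest control, Trib3 was the lowest. Nupr1 and Bbc3 had log2 fold changes of 0.46 (adjusted p = 0.0182) and 0.54 (same edgeR test, adjusted p = 0.0195), and for both 4 of the 5 knockdown samples were above the highest control. Eif2ak2, which is also an interferon-induced gene, was 0.83 higher on the log2 scale (same edgeR test, adjusted p = 0.0278), and its control replicate 3 was at 2740, within the range of the knockdown samples from 1802 to 3044.

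Beside 21.3% of all listed genes, 3 genes of this list were called lower. The serine synthesis gene Psat1 (log2 fold change -0.62, adjusted p = 0.0196), the glycine transporter gene Slc6a9 (-0.60, adjusted p = 0.023) and the large neutral amino acid transporter gene Slc7a5 (-0.36, adjusted p = 0.0423, all by edgeR quasi-likelihood with Benjamini-Hochberg adjustment) were lower in the knockdown samples. Psat1 was at 4015, 3219, 4518, 4300 and 3825 in knockdown replicates 4, 6, 8, 10 and 22, all below the control median of 5554, with control replicate 3 the lowest control at 4355. The remaining 5 genes of the list, Phgdh, Psph, Slc7a11, Slc7a1 and Eprs, were not called, with log2 fold changes of -0.28, -0.14, -0.23, -0.17 and -0.01. With the authors' scaling Phgdh (-0.42, adjusted p = 0.0382) and Slc7a11 (-0.37, adjusted p = 0.027, same edgeR test) were called lower too, beside 47.3% of all listed genes, and the median of the list was -0.28. The 3 serine synthesis genes and Slc6a9 are also expressed in astrocytes.

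Other branches of ER quality control were thinly covered. Rnf139, a ubiquitin ligase gene of ER-associated degradation, had a log2 fold change of -0.18 that was not called (edgeR quasi-likelihood test, Benjamini-Hochberg adjusted p = 0.202) and of -0.31 with the authors' scaling, then called lower (same edgeR test, adjusted p = 0.0421). Of 51 listed symbols of translocation and glycosylation, Prkcsh, which encodes the beta subunit of glucosidase II, an enzyme that trims glycans in the ER, was called higher at 0.37 (edgeR, adjusted p = 0.0244), but not with the authors' scaling at 0.24 (adjusted p = 0.0554). Ssr1 (-0.13) and Magt1 (-0.05) were not called, and Ssr1 was called lower with the authors' scaling (-0.26, edgeR adjusted p = 0.0439). Of all listed genes, 39.0% were called higher and 21.3% lower with TMM, and 32.2% and 47.3% with the authors' scaling. Of 32 listed cytosolic heat shock genes, Dnajb1 (-0.42) and Hspa14 (-0.14) were analysed and were not called with TMM. With the authors' scaling both were called lower (-0.56 and -0.27, edgeR adjusted p = 0.0311 and 0.0491), beside 47.3% of all listed genes.

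**Figure D3:**
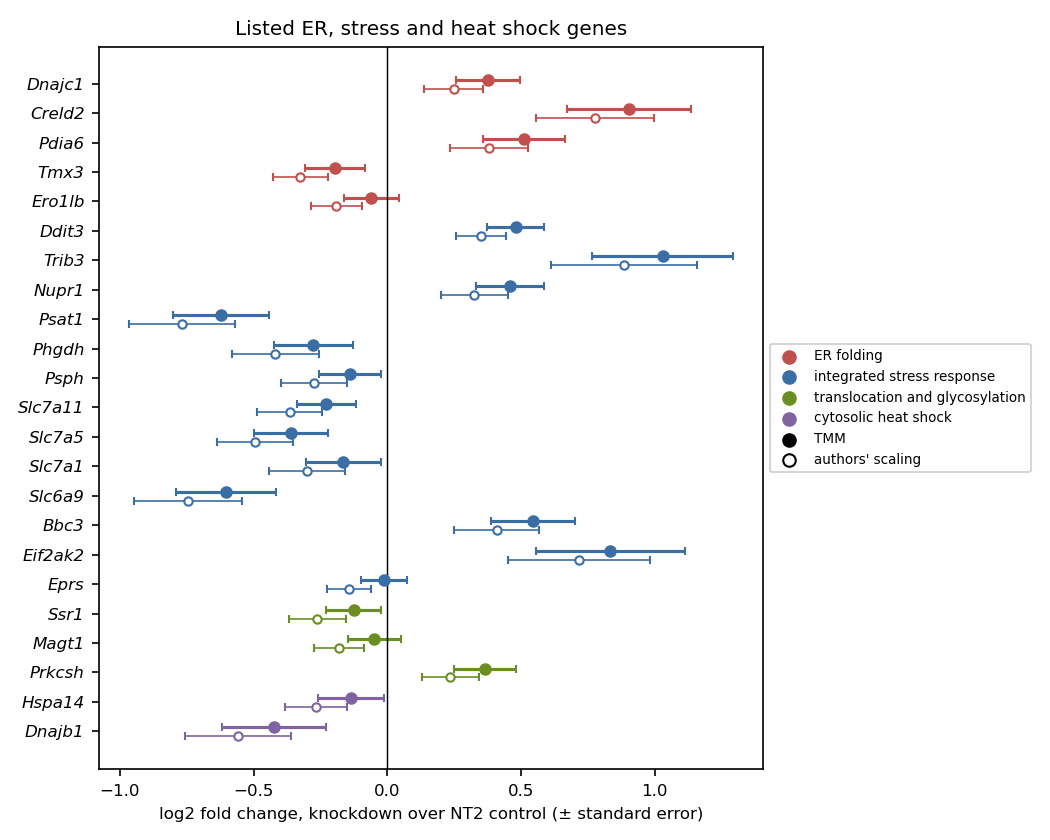
Log2 fold changes (knockdown over NT2 control) with standard errors from edgeR for the genes of the table in the lists of ER folding, integrated stress response, translocation and glycosylation, and cytosolic heat shock, coloured by list, with TMM (filled) and with the authors' scaling (open). The authors' scaling lies to the left of TMM for every gene, and Trib3 at 1.03 and Creld2 at 0.90 are farthest to the right.

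Of the markers of other cell types, 5 of 6 astrocyte markers, 4 of 7 vascular markers and the oligodendrocyte marker Ugt8a were called lower in the knockdown samples, beside 21.3% of all listed genes. The microglia marker P2ry12 was not called (-0.35, edgeR adjusted p = 0.0954). With the authors' scaling all 6 astrocyte and all 7 vascular markers, Ugt8a and P2ry12 (-0.49, edgeR adjusted p = 0.0363) were called lower, beside 47.3% of all listed genes. The summed normalized count of the 6 astrocyte markers analysed (of 14), of which Slc1a3 was the most abundant, ranged from 31690 in control replicate 3 to 81910 in the controls, with a median of 51100. It was 21060, 22690, 28300, 34250 and 37760 in knockdown replicates 4, 6, 8, 10 and 22. The 7 vascular markers analysed (of 11; Slco1a4 the most abundant) summed to between 5885, again in control replicate 3, and 9752 in the controls, with a median of 7944, and to 5309, 7033, 5167, 5179 and 4030 in the same knockdown samples. Ugt8a, the 1 of 14 oligodendrocyte markers analysed, lay between 9979 and 20620 in the controls and between 10140 and 11870 after knockdown. P2ry12, the 1 of 13 microglia markers, lay between 13340 and 25660 and between 12840 and 16010. No marker analysed was at 0 in any sample, and none of the 9 neuronal or 14 striatal projection neuron markers listed was analysed here. In bulk RNA of sorted cells, fewer cells of a type and less RNA per cell cannot be told apart.

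With the glial marker score, the mean log2 level of the 8 astrocyte, oligodendrocyte and microglia markers, as a covariate in the edgeR fit, none of the 4 genes kept an adjusted p under 0.05, beside 3.74% of the listed genes called higher and 0.905% called lower. The log2 fold changes were then 0.31 for Ddit3 (adjusted p = 0.145), 0.56 for Creld2 (adjusted p = 0.202), 0.26 for Pdia6 (adjusted p = 0.336) and -0.22 for Ero1lb (adjusted p = 0.266, all by edgeR quasi-likelihood with Benjamini-Hochberg adjustment). At an unadjusted p under 0.05, Ddit3 was the 1 gene of the 4 that passed this edgeR fit. The score was -0.455 in control replicate 3, the control in which all 4 genes were highest, and between 0.039 and 1.04 in the other controls, against -0.84 to -0.102 in the knockdown samples. Being highest in control replicate 3 was not particular to the 4 genes. With TMM it was also the highest control for Nfyc, Tmx3, Eprs, Magt1 and Hspa14, among others, but the lowest for Trib3 and Psat1. That sample also had the smallest TMM scaling factor, 0.645. The 8 markers came from the authors' table and were thus themselves selected on the difference between knockdown and control. A score built from them differs between the groups in part by that choice. This fit therefore cannot separate glial content from the knockdown. The part of the glial and vascular cells in the differences of the 4 genes was not tested.

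Of 19 listed interferon genes, 16 were analysed, and 14 were called higher, beside 39.0% of all listed genes, with a median log2 fold change of 1.15. With the authors' scaling 14 were called higher too, beside 32.2%. Their summed normalized count, to which Ifit2 contributed the most, was 94820 in control replicate 3 and between 16560 and 57270 in the other controls. It was 120800, 114300, 102800, 67540 and 127300 in knockdown replicates 4, 6, 8, 10 and 22. As for Creld2 and Pdia6, control replicate 3 was thus above the lowest knockdown sample. Of 27 listed immediate early genes, which respond to cell activity and to dissociation, 4 were analysed, with 1 called higher and 3 not called with TMM, and 1 called higher and 2 lower with the authors' scaling, beside 32.2% and 47.3% of all listed genes. Their sum, mostly Junb, lay between 71910 and 94410 in the controls and between 71000 and 88110 after knockdown. The part of the interferon and immediate early responses in the differences of the ER genes was not tested.

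The promoters of all 4 genes were matched in RefSeq (GRCm38.p6), and the 250 bases before each start were searched on both strands. CCAAT, the letters that NF-Y binds, occurred once upstream of Ddit3, 3 times upstream of Creld2, 2 times upstream of Pdia6 and once upstream of Ero1lb, and 33.8% of 32851 promoters of the same length and 41.9% of the 1352 genes of the authors' table matched to a promoter held it at least once. CCACG was absent from this window of Ddit3 and occurred 2, 4 and 1 times for Creld2, Pdia6 and Ero1lb, and 28.3% of all promoters and 42.5% of the matched genes held it. The combined letters of the ER stress response element, CCAAT followed by 9 bases and CCACG, were found once each upstream of Creld2, Pdia6 and Ero1lb and not in this window of Ddit3. They were held by 37 of the 32851 promoters, or 0.113%. Of the 1352 matched genes, 4 did (0.296%), and these were Creld2, Pdia6, Ero1lb and Calr4, a calreticulin family gene that was named after its values were seen (log2 fold change -1.07, edgeR quasi-likelihood test, Benjamini-Hochberg adjusted p = 0.136). TGACGTGG (0.563% of all promoters and 1.11% of the matched genes), a motif of the XBP1 and ATF6 proteins, and TGATGNAA (3.45% and 3.03%), a motif of ATF4 with C/EBP proteins, were not found in this window of any of the 4 genes.

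The bases from 230 to 51 before the start are shown to compare the combined letters. Creld2 and Pdia6, which varied together, and Ero1lb, which was not called, share them, while Ddit3 lacks the exact letters. Only exact letters were searched. Upstream of Ddit3, CCAAT on the opposite strand is followed after 9 bases by GCACG in place of CCACG. The stretches are on the plus strand of GRCm38.p6, at chr10:127290563-127290742 for Ddit3, chr15:88819416-88819595 for Creld2, chr12:17266359-17266538 for Pdia6 and chr13:12565653-12565832 for Ero1lb. Capitals mark CCAAT and CCACG on the strand shown and their reverse complements ATTGG and CGTGG, which are matches on the other strand.
Ddit3: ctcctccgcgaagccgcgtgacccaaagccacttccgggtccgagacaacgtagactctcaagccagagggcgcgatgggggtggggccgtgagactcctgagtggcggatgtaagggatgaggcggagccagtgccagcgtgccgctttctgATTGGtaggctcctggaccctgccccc
Creld2: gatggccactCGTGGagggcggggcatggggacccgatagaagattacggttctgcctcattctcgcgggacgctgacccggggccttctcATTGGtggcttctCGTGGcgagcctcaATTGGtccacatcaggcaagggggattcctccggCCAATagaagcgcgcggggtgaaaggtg
Pdia6: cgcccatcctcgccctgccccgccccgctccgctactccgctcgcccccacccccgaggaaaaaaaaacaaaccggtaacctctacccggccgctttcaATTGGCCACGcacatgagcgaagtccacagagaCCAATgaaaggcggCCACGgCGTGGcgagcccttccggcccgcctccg
Ero1lb: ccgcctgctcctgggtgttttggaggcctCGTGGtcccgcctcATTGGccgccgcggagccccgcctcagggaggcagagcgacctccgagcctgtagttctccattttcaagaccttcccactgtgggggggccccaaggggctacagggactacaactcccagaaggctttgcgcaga

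The combined letters lay at 126 to 108 bases before the start of Creld2, read on the opposite strand as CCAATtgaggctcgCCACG. For Pdia6 they lay at 98 to 80 bases before the start, read on the strand of the gene as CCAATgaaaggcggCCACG, and for Ero1lb at 201 to 183 bases, read on the opposite strand as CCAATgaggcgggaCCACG. Capitals here mark the ends that were searched, which are also counted among the single CCAAT and CCACG matches, and the 9 bases between them were free. Ero1lb thus held the letters farther from its start than the other 2 genes. A match describes the sequence and shows neither binding nor its effect.

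**Figure D4:**
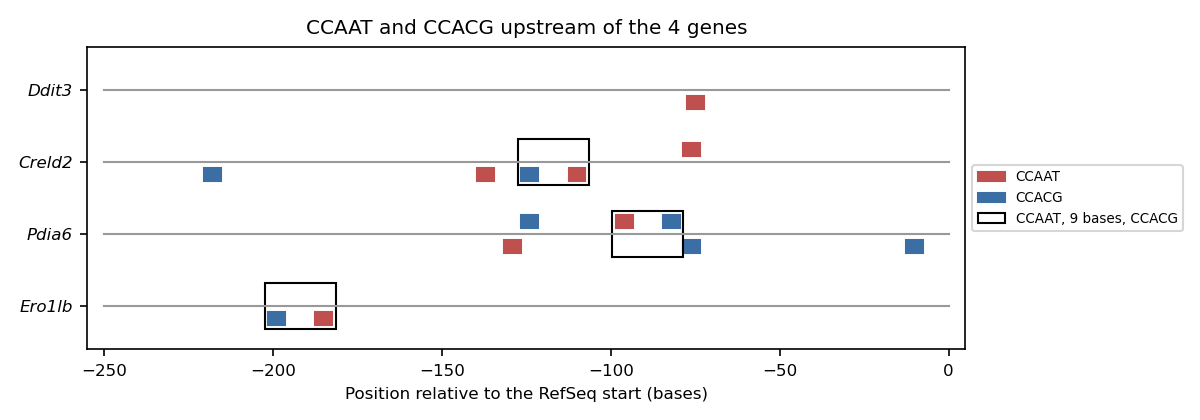
Positions of CCAAT (red) and CCACG (blue) in the 250 bases before the RefSeq start of each gene, with matches on the strand of the gene above the line and on the opposite strand below it. Boxes mark CCAAT followed by 9 bases and CCACG, which is present in Creld2, Pdia6 and Ero1lb.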

How the data were processed

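Reads had been assigned to genes in Strand NGS, and the authors deposited estimated counts, 50.6% of which were within 1e-04 of a whole number. The authors also deposited log2 values, scaled per sample and centred per gene, from which their scaling factors were recovered. The deposited p-value and fold change compare knockdown with control and were not used, except that every deposited p-value was checked to be under 0.05. Labels gave the group and number of each sample but no batch.

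Estimated counts were rounded and fitted over all 1767 genes by glmQLFit and glmQLFTest of edgeR 4.0.16 in R 4.3.3, with TMM factors and group as the only term. P-values were adjusted over these genes by Benjamini-Hochberg. All of these genes had been selected on the same difference, so the adjusted p-values are not false discovery rates over all expressed genes. The TMM factors also rest on these selected genes, and the authors' scaling is therefore given beside TMM. For permutation tests and correlations, 0.5 was added before log2. The alternatives were the authors' scaling, DESeq2 1.42.0, its size factors, genes with a highest count of at least 200, a number block (3 to 10 against 21 to 23), the glial marker score, a robust fit, counts not rounded, leaving out each sample, and a call at an unadjusted p under 0.05 with a fold change above 1.2. Leaving out samples on the authors' scaling, and the alternatives for the correlation, were chosen after seeing the data. P-values measure the spread between samples. Within groups, the 25 pairs of samples differed by 20.5 to 161.2 in chi-square per degree of freedom, and all were kept as separate samples.

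The members and lists were chosen with earlier results of these data known. The named genes were the 4 members, all genes of the ER, stress and heat shock lists in the table, Nfyc, and the 3 genes most alike to each member. Of the named genes, 2 are not reported here. Some lists hold older and newer symbols of 1 gene. Promoters were matched by gene identifier. The reads were not stated to be counted by strand, and in GENCODE M21 Ddit3 overlaps the antisense genes Gm4189 and Mars by 15 and 68 bases and a second gene of its name on its own strand by 2925 bases, Pdia6 overlaps the antisense gene Atp6v1c2 by 50 bases, and Ero1lb overlaps the small RNA gene Gm25483 on its own strand by 227 bases. Reads there cannot be told apart.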

Additional observations from a re-analysis of the deposited data

Results flagged for a closer look

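Of 52 groups of values tested, for 26 named genes in each group of samples, 3 held a sample whose gap to its nearest neighbour was large for the range of the group, and chance gives about 1 in 20. Ero1lb in control replicate 3 was at a normalized count of 1340, above the other controls. Slc7a1 in control replicate 23 was at 482.7, above the other controls. Ssr1 in knockdown replicate 10 was at 4343, below the other knockdown samples.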

How the results depend on the processing

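Ddit3, Creld2 and Pdia6 kept their direction and an adjusted p under 0.05 in 18 of 19 alternatives each. With the glial marker score in the fit they did not, with log2 fold changes of 0.31, 0.56 and 0.26 and 0 members called higher in place of 3, and the cause was not tested. The markers of that score were themselves selected on the difference between the groups. Over the alternatives the adjusted p (edgeR or DESeq2) ran from 0.000402 to 0.145 for Ddit3, from 0.00203 to 0.202 for Creld2 and from 0.00398 to 0.336 for Pdia6. Leaving out 1 sample at a time gave log2 fold changes from 0.43 to 0.54 for Ddit3, from 0.75 to 1.07 for Creld2 and from 0.41 to 0.62 for Pdia6. Ero1lb was called in none of its 19 alternatives (adjusted p from 0.072 to 0.925) and changed sign without control replicate 3 (0.013), with a range from -0.089 to 0.013 over the samples left out.

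On the authors' scaling, Pdia6 was no longer called in 7 of 11 fits with 1 sample left out, those without control replicate 5, 7, 9 or 23 or knockdown replicate 4, 6 or 22. Its log2 fold change ranged from 0.29 to 0.46 over the 11 fits (adjusted p from 0.0134 to 0.0876, edgeR). Ero1lb was called lower there without control replicate 9 (-0.23, adjusted p = 0.0466, edgeR), with a range from -0.23 to -0.14. Ddit3 and Creld2 stayed called in all 11. The correlation of Creld2 and Pdia6 over the controls stayed between 0.962 and 0.989 in 8 alternatives.

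The lowest estimated count of the 4 genes was 793.4 for Ddit3, a counting error of 3.6%, which does not cover amplification.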
